A study of Mus musculus with 6 samples.

Results

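Glutamine tRNA fragments are short RNAs cut from the tRNAs that carry glutamine. They were followed in small RNA libraries of mouse brain at 22 months of age and at 3 months (n = 3 libraries each). All libraries came from C57BL/6 mice, a common inbred laboratory strain, with no treatment named in the labels, which do not say whether each library is a separate animal. P-values therefore measure the spread between these libraries, which may be technical. The table lists tRNA fragments only, so the tissue could not be checked against marker genes. In bulk tissue, fewer cells of a type and less RNA per cell cannot be told apart. Each fragment has an ID of a tRNA-derived small RNA (tDR), a tag count in every library and a list of the parent tRNAs it matches. An ID was taken as a glutamine fragment where all its parents were glutamine tRNAs and at least 1 was a mature tRNA and not a precursor. That rule, which used no measured value, kept 29 of the 591 IDs in the table. Of these, 17 had parents with the anticodon CTG only, 9 with TTG only and 3 with both.

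The anticodon CTG pairs with the glutamine codon CAG, and TTG pairs with CAA. Mature tRNAs end in CCA, which an enzyme adds after transcription and to which the amino acid is bound. Fragments arise when nucleases cut a tRNA, often in the anticodon loop, and such fragments can act on translation. In brain, glutamine is also the precursor from which neurons make the transmitters glutamate and GABA. The comparison of the series is between aged and young brain.

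The table gives parent sequences and not those of the fragments, so the parents are shown, as DNA letters as deposited and with the anticodon in capitals. These 4 show how little separates the CTG and TTG parents, and where the parents of the leading IDs differ.
Gln-CTG-3-1: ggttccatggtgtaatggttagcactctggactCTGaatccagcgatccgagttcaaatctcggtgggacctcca
Gln-CTG-2-1: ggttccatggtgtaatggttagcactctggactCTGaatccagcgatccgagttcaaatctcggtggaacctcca
Gln-TTG-1-1: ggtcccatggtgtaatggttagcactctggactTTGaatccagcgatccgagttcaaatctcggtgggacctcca
Gln-TTG-6-1: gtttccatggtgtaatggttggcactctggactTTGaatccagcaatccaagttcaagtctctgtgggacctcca
Positions are counted from the 5′ end of these tRNAs of 75 nt, in which the anticodon takes positions 34 to 36. Against Gln-CTG-3-1, Gln-CTG-2-1 differed by G68A alone. Gln-TTG-1-1 differed by T4C and C34T, an identity of 97.3%. Gln-TTG-6-1 had 7 differences, an identity of 90.7%.

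The table names 18 mature glutamine parents, 12 of CTG and 6 of TTG, and 11 precursors. RefSeq's annotation of the mouse genome (GRCm38.p6) places 16 glutamine tRNA genes. Those of CTG number 4 on chromosome 3, 4 on chromosome 13 and 1 each on chromosomes 9 and 11. Those of TTG number 3 on chromosome 13, 2 on chromosome 11 and 1 on chromosome X. The parent names were not paired with these genes, and near-identical copies share reads, so an ID is not tied to 1 gene.

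The stretches of 15 nt or more that all parents of an ID share limit where the fragment can lie, if it matches each parent exactly. For 13 IDs all such stretches lay between positions 1 and 44, on the 5′ side up to and past the anticodon. For 2 IDs, AS-tDR-006051 and AS-tDR-000071, the shared stretch was positions 51 to 75, which holds the CCA end. The other 14 could not be placed by this rule. The stretch of AS-tDR-002356, at positions 5 to 33, ends just before the anticodon, and that of AS-tDR-013649 runs from position 1 to 44. The stretches of these IDs and of AS-tDR-006051 are printed because fragments described below lie in them, with the anticodon or the CCA end in capitals.
AS-tDR-013649: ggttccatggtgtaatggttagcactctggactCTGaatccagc
AS-tDR-002356: ccatggtgtaatggttagcactctggact
AS-tDR-006051: agttcaaatctcggtgggacctCCA
The 29 IDs fell into 14 distinct sets of parents, and 24 of them shared their exact set with another member. Such IDs lie in the same stretches, may overlap and are not independent. For 6 IDs, no window of 15 to 50 nt was held by all listed parents and by no other listed tRNA. For a fragment of that length with exact matches, their parent lists then cannot be complete, and a parent that is not listed says little. Whether mismatches were allowed is not given in the sources used here.

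**Figure D1:**
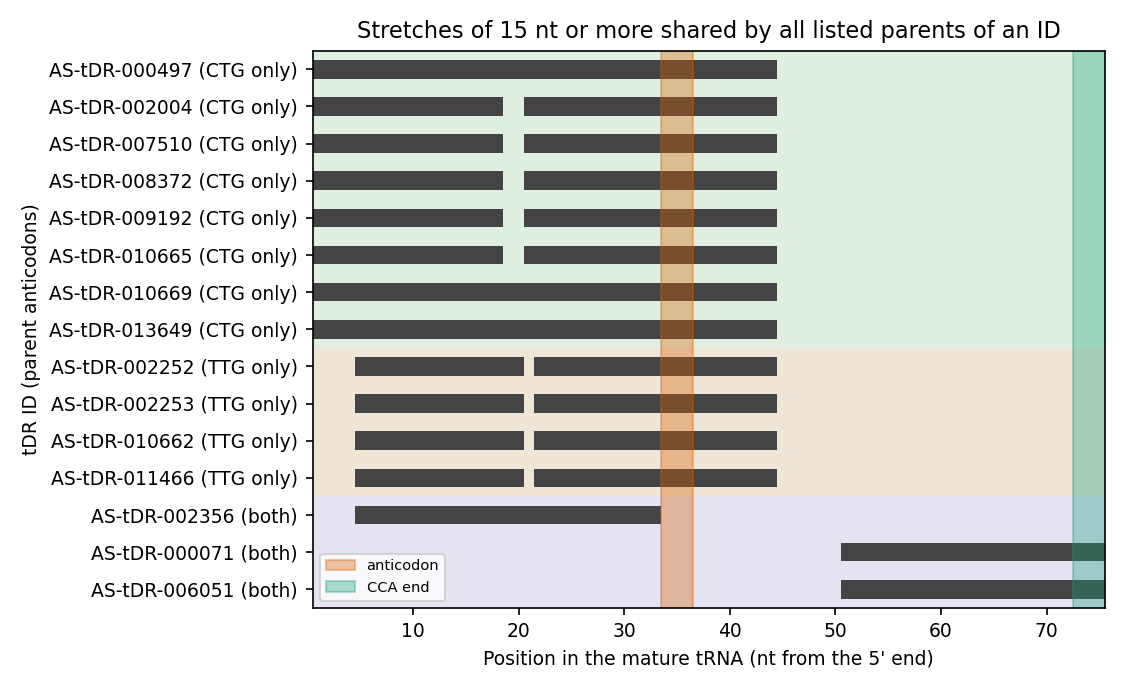
Stretches of 15 nt or more shared by all listed parents, for the 15 IDs that could be placed; the horizontal axis is the position in nt from the 5′ end of the mature tRNA, and rows are IDs with their parent anticodons. Bars show the shared stretches: 13 IDs lie between positions 1 and 44, and 2 lie between positions 51 and 75, at the CCA end.

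Listed tags summed to 71121, 96130 and 84807 in 22 month replicates 1, 2 and 3, and to 57425, 45131 and 44156 in 3 month replicates 1, 2 and 3. Each library lists no value between 0 and a smallest count of 8 to 17 tags, so a 0 was read as a level below about 177 to 204 CPM (tags per 1000000 listed tags). All levels are relative to listed tRNA fragments. The 22 month replicate 3 stood apart from its group: among the 290 IDs above 0 in every library, it held the lowest level in 120, or 41.4%. Among the 20 glutamine IDs above 0 in every library, it held the lowest in 15 and the highest in 1, AS-tDR-000069. Where leaving it out moved a result most, the value without it is given beside the result.

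Glutamine fragments were a minor part of the listed tRNA fragments, and a smaller one in the 22 month libraries. In 22 month replicate 1 they took 3.14% of listed tags (95% Wilson interval 3.02 to 3.27), in replicate 2 2.46% (2.36 to 2.55) and in replicate 3 1.88% (1.79 to 1.97). In 3 month replicate 1 they took 3.66% (3.51 to 3.82), in replicate 2 3.25% (3.09 to 3.42) and in replicate 3 3.53% (3.36 to 3.71). The ages did not overlap, with means of 2.49% ± 0.632 at 22 months, against 3.48% ± 0.21 at 3 months (SD over 3 libraries per age). The difference of -0.992 percentage points was -0.685 without 22 month replicate 3. The intervals cover counting error only. A share depends on every other listed fragment. With library size as the only scaling, as in a share, the median log2 difference over all IDs tested was -0.35. How often other groups of IDs separated the ages in their shares was not counted. Summed tags themselves were 2234, 2360 and 1593 at 22 months, against 2104, 1468 and 1560 at 3 months. The share was not tested, since the fragments were grouped with earlier results of these data known.

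By anticodon, CTG parents gave 1.65% ± 0.398 of all tags at 22 months, against 2.28% ± 0.157 at 3 months. TTG parents gave 0.279% ± 0.126 at 22 months, against 0.464% ± 0.0329 at 3 months. Fragments shared between both gave 0.566% ± 0.109 at 22 months, against 0.738% ± 0.0766 at 3 months (each an SD over 3 libraries). The ages overlapped only for the shared fragments. The TTG difference of -0.185 percentage points was -0.122 without 22 month replicate 3. The ratio of CTG to TTG tags within a library does not depend on scaling, though it does depend on IDs listed at 0. It was 5.09, 5.77 and 8.28 at 22 months, against 5.19, 5.05 and 4.53 at 3 months. The ages overlapped, and 22 month replicate 3 had the highest ratio. The difference of the means was 1.46, and 0.508 without that library. Over glutamine IDs above 0 in every library it was 0.818, and with zeros set just below the smallest listed count 0.537.

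**Figure D2:**
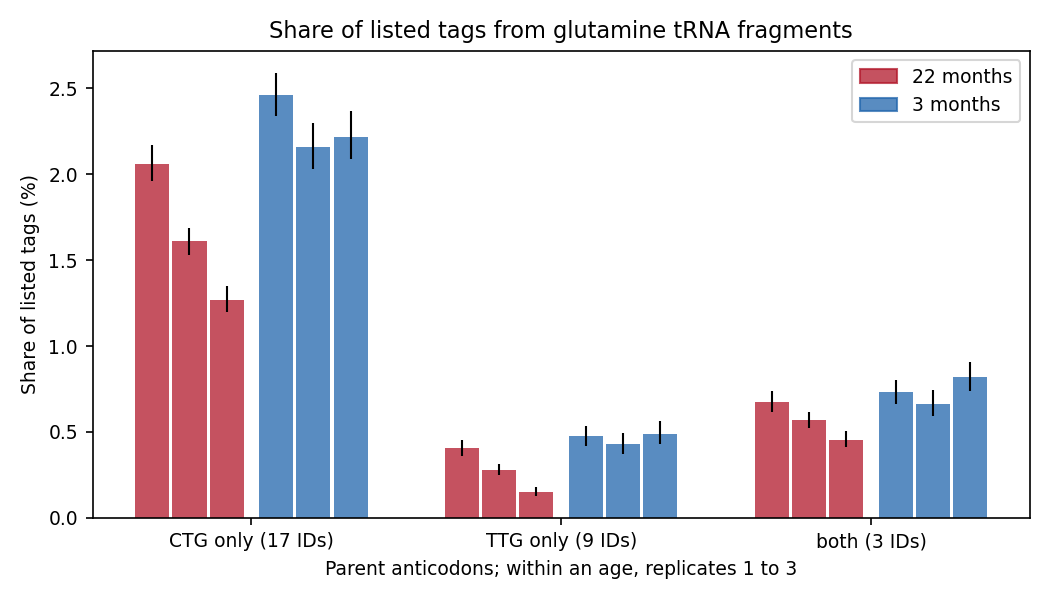
Share of listed tags (%) from glutamine fragments, by parent anticodons; bars are single libraries, replicates 1 to 3 of 22 months left of those of 3 months, and lines are 95% Wilson intervals. CTG bars lie between 1.27% and 2.06% at 22 months and between 2.16% and 2.46% at 3 months.

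No single glutamine fragment passed the test for a change with age over all IDs. Of 25 members tested, 0 rose and 0 fell in edgeR's quasi-likelihood test, at a p under 0.05 after Benjamini-Hochberg adjustment over 439 IDs. Of all IDs tested, 4.78% rose and 1.82% fell, 6.61% together. Unadjusted p lay under 0.05 for 2 of the 25, where it did for 25.5% of all IDs. DESeq2 called 2 members, where it called 22.1% of all IDs, and limma-voom 1, where it called 10.5%, all lower at 22 months. A log2 difference below 0 was found for 22 of the 25, against 57.4% of all IDs, and the median was -0.36 against -0.16 over all IDs. Without 22 month replicate 3, 18 of 27 were below 0 and the medians were -0.11 and -0.01. With library size as the only scaling the medians were -0.54 and -0.35. Both medians thus moved by about the same amount, and the difference between them was -0.19 there and -0.20 with TMM scaling. Levels of single IDs below are TMM-scaled CPM (scaled between libraries by a trimmed mean of log ratios).

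Among CTG fragments, which made up the bulk of glutamine tags, AS-tDR-006049 was the most abundant. It had 2999, 3428 and 3120 CPM at 22 months, against 4451, 4605 and 4281 CPM at 3 months. Every 22 month library lay below every 3 month library. The log2 difference was -0.48 (SE 0.16, 95% interval -0.87 to -0.10) and did not pass (edgeR, adjusted p = 0.109), although it passed in DESeq2 (adjusted p = 0.0163).

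The next, AS-tDR-000069, is listed under the same 4 mature parents, Gln-CTG-2-1 to Gln-CTG-2-4. It had 2428, 2658 and 3257 CPM at 22 months, against 3130, 2913 and 3032 CPM at 3 months. The ages overlapped, with a log2 difference of -0.12 (SE 0.18; in edgeR, adjusted p = 0.703), which was 0.07 without 22 month replicate 1. Neither of these IDs is listed under a glutamine precursor. The windows of at most 50 nt found in these 4 parents and in no other listed tRNA all cover positions 61 to 73, toward the 3′ end.

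AS-tDR-013649, next in abundance and on the 5′ side, had 1752, 1648 and 930 CPM at 22 months, against 2375, 1585 and 1659 CPM at 3 months. The ages overlapped and 22 month replicate 3 was lowest, with a log2 difference of -0.38 (SE 0.31; in edgeR, adjusted p = 0.502). It was -0.08 without that library and -0.16 without 3 month replicate 1. AS-tDR-010669, with the same 14 parents, had the lowest log2 difference of the CTG fragments, -0.65 (SE 0.36, interval -1.54 to 0.23; in edgeR, adjusted p = 0.306). Its levels were 916, 1191 and 534 CPM at 22 months, against 1589, 964 and 1598 CPM at 3 months, and they overlapped. Without 22 month replicate 3 the difference was -0.33.

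AS-tDR-000497, again with those 14 parents, had the highest log2 difference. It had 0, 17 and 79 tags at 22 months, against 21, 0 and 0 tags at 3 months. The 17 tags are the smallest count that 22 month replicate 2 lists, so replicate 3 was the only 22 month library well above its listing minimum. At 3 months, replicate 1 had 21 tags where its smallest listed count is 11. The log2 difference of 1.90 (SE 2.16, interval -3.36 to 7.17; in edgeR, adjusted p = 0.65) was -0.05 without 22 month replicate 3 and 7.81 without 3 month replicate 1.

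The remaining CTG fragments had log2 differences between -0.45 and 0.26. AS-tDR-007510, AS-tDR-009192 and AS-tDR-010665 were named after their values were seen. They share 17 parents and the 5′ side, and their log2 differences were -0.36, -0.45 and 0.26. Those of AS-tDR-002004, AS-tDR-008372, AS-tDR-002163, AS-tDR-006441 and AS-tDR-002045, also named after their values were seen, were -0.38, -0.18, -0.04, -0.03 and -0.01. Gln-CTG-7-1 and its precursor are the only parents of 5 IDs, of which 4 were too sparse to be tested. AS-tDR-009293 and AS-tDR-012419 each had 13 tags in 22 month replicate 1 and 0 elsewhere. AS-tDR-010688 had 0 tags in all 3 libraries at 22 months, against 0, 12 and 12 at 3 months. AS-tDR-011460 had 0 tags in all 3 at 22 months, against 0, 15 and 12 at 3 months. These counts lie at or near the listing minimum, and no fold is given. The summed level of CTG fragments (Gln-CTG), scaled on sums by anticodon, was 19400, 18475 and 16993 CPM at 22 months, against 22154, 19598 and 18803 CPM at 3 months. The ages overlapped, with a log2 difference of -0.14 (SE 0.14, interval -0.49 to 0.20; in edgeR, adjusted p = 0.516 over 77 sums), and 0.004 without 3 month replicate 1. Of all 77 sums, 18.2% passed in either direction, and none of the 3 glutamine sums did.

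**Figure D3:**
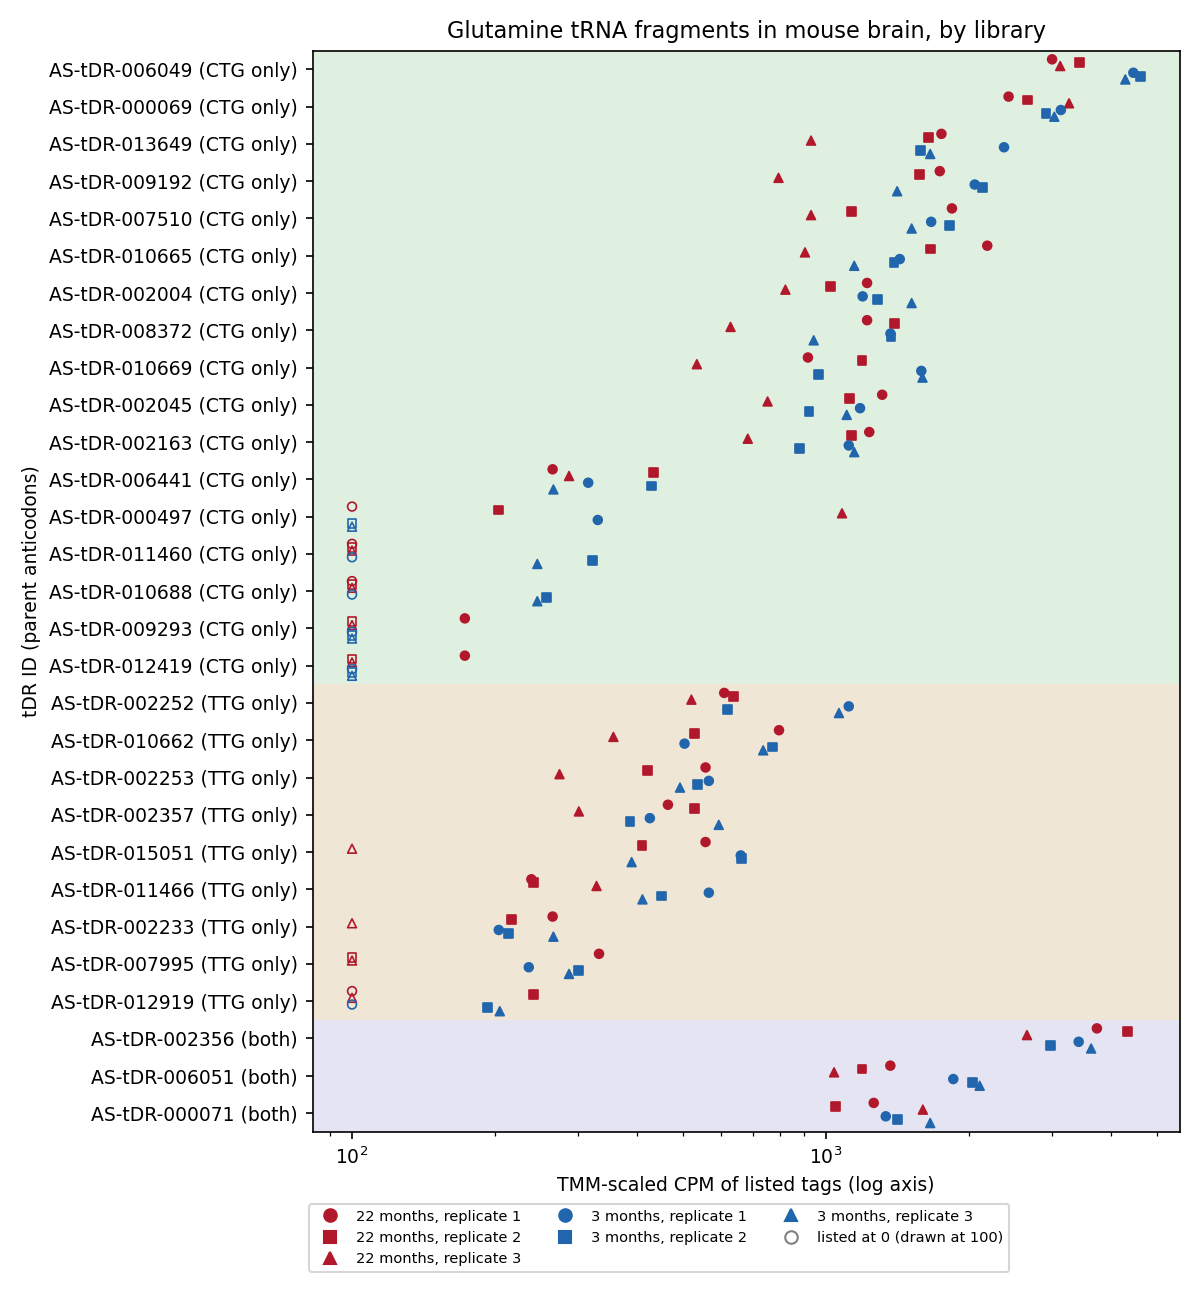
Level of each of the 29 glutamine IDs in each library, as TMM-scaled CPM on a log axis; rows are IDs grouped by parent anticodons, 22 month libraries are drawn above 3 month libraries, and open symbols mark values listed at 0. For AS-tDR-006049 and AS-tDR-006051 all 22 month libraries lie left of all 3 month libraries, and 22 month replicate 3 is the lowest point of 15 of the 20 IDs above 0 everywhere.

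The TTG fragments were less abundant, and all 9 had a log2 difference below 0, against 57.4% of all IDs. These lay between -1.30 and -0.11, with a median of -0.67 against -0.16 over all IDs. Without 22 month replicate 3 not all stayed below 0, with AS-tDR-010662 at 0.05 and AS-tDR-002357 at 0.16. The 9 fell into 4 sets of parents. Of them, 5 were above 0 in every library, and each of the others was listed at 0 in 22 month replicate 3. The most abundant, AS-tDR-002252, lies on the 5′ side. It had 610, 638 and 520 CPM at 22 months, against 1117, 621 and 1065 CPM at 3 months. The ages overlapped only through 3 month replicate 2, with a log2 difference of -0.67 (SE 0.29, interval -1.36 to 0.03; in edgeR, adjusted p = 0.21). Its partner with the same 10 parents, AS-tDR-010662, had 796, 529 and 356 CPM at 22 months, against 503, 771 and 737 CPM at 3 months. That difference was -0.25 (SE 0.37; in edgeR, adjusted p = 0.697) with overlapping ages, and 0.05 without 22 month replicate 3.

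AS-tDR-002253 had 557, 421 and 274 CPM at 22 months, against 566, 535 and 492 CPM at 3 months, a log2 difference of -0.35 (SE 0.35; in edgeR, adjusted p = 0.609), and the ages overlapped. Without 22 month replicate 3 it was -0.06. AS-tDR-011466, with the same 5 parents as AS-tDR-002253 and named after its values were seen, was the 1 TTG fragment whose ages did not overlap. It had 239, 241 and 328 CPM at 22 months, against 566, 450 and 410 CPM at 3 months, a log2 difference of -0.82 (SE 0.38; in edgeR, adjusted p = 0.237). AS-tDR-002357 had 464, 529 and 301 CPM at 22 months, against 425, 386 and 594 CPM at 3 months. Its log2 difference of -0.11 (SE 0.37; in edgeR, adjusted p = 0.866) was 0.16 without 22 month replicate 3 and 0.09 without 3 month replicate 3.

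Gln-TTG-6-1 and its precursor are the only parents of 3 sparse IDs. AS-tDR-007995 had 25, 0 and 0 tags at 22 months, against 15, 14 and 14 at 3 months. Its log2 difference of -1.30 (SE 1.82, interval -5.73 to 3.13; in edgeR, adjusted p = 0.692) was the lowest of the glutamine fragments in this fit. It was -7.07 without 22 month replicate 1, -0.71 without replicate 2 and -0.69 without replicate 3 of that age. With zeros set just below the smallest listed count it was -0.17, where other fragments were lower. The other sparse IDs were named after their values were seen. AS-tDR-002233 had 20, 18 and 0 tags at 22 months, against 13, 10 and 13 at 3 months, and AS-tDR-012919 had 0, 20 and 0 tags at 22 months, against 0, 9 and 10 at 3 months. AS-tDR-015051, also named after its values were seen, has the 8 parents of AS-tDR-002357. It had 42, 34 and 0 tags at 22 months, against 42, 31 and 19 at 3 months. All 3 overlapped, and 22 month replicate 3 was listed at 0 in each. The summed level of TTG fragments (Gln-TTG) was 3809, 3203 and 2053 CPM at 22 months, against 4268, 3879 and 4155 CPM at 3 months. The ages did not overlap, as for 18.2% of all sums in this direction, and the log2 difference of -0.44 (SE 0.24, interval -1.03 to 0.15) did not pass (edgeR, adjusted p = 0.261). Without 22 month replicate 3 it was -0.23.

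Of the fragments shared between CTG and TTG parents, AS-tDR-002356 was the most abundant, under 22 parents. It had 3729, 4330 and 2655 CPM at 22 months, against 3413, 2977 and 3626 CPM at 3 months. The ages overlapped, with a log2 difference of 0.10 (SE 0.23, interval -0.47 to 0.66; in edgeR, adjusted p = 0.821), and -0.12 with library size as the only scaling and -0.06 without 22 month replicate 2.

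AS-tDR-006051, at the CCA end, had the smallest p of all glutamine fragments. It had 1367, 1191 and 1040 CPM at 22 months, against 1856, 2035 and 2110 CPM at 3 months. Every 22 month library lay below every 3 month library. The level was 1199 ± 164 CPM at 22 months, against 2000.0 ± 130.0 CPM at 3 months (SD, n = 3 per age). The log2 difference was -0.74 (SE 0.18, interval -1.18 to -0.29). It did not pass (edgeR, adjusted p = 0.058; unadjusted 0.00639). It passed in limma-voom (adjusted p = 0.0466), in DESeq2 (0.00125), with RLE scaling (0.0451) and among the 290 IDs above 0 in every library (0.0233). RLE scaling called 10.0% of all IDs, and 22.4% of the 290 were called. AS-tDR-006051 did not pass in edgeR with library size only (adjusted p = 0.0953), scaling to the smallest listed count (0.122) or no filter (0.0944). Nor did it with zeros set just below the smallest listed count (0.0948) or replicate number as a term (0.232). It did not pass in any of the 6 fits that left out 1 library, where its log2 difference lay between -0.78 and -0.58. Across the 25 tested, 3 members, AS-tDR-006051, AS-tDR-006049 and AS-tDR-011466, did not overlap and were lower at 22 months, against 20.0% of all IDs. None was higher without overlap, against 19.4% of all IDs.

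AS-tDR-000071, listed under the same 12 parents as AS-tDR-006051 and limited to the same 25 nt, had 1261, 1047 and 1601 CPM at 22 months, against 1337, 1414 and 1659 CPM at 3 months. The ages overlapped, with a log2 difference of -0.17 (SE 0.22; in edgeR, adjusted p = 0.678), which was -0.04 without 22 month replicate 1 and -0.04 without replicate 2. The summed level of the 3 shared fragments was 6334, 6525 and 6112 CPM at 22 months, against 6590, 6030 and 6912 CPM at 3 months, a log2 difference of -0.04 (SE 0.13, interval -0.35 to 0.27; in edgeR, adjusted p = 0.777). It was 0.04 without 3 month replicate 1 and 0.003 without replicate 3 of that age.

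**Figure D4:**
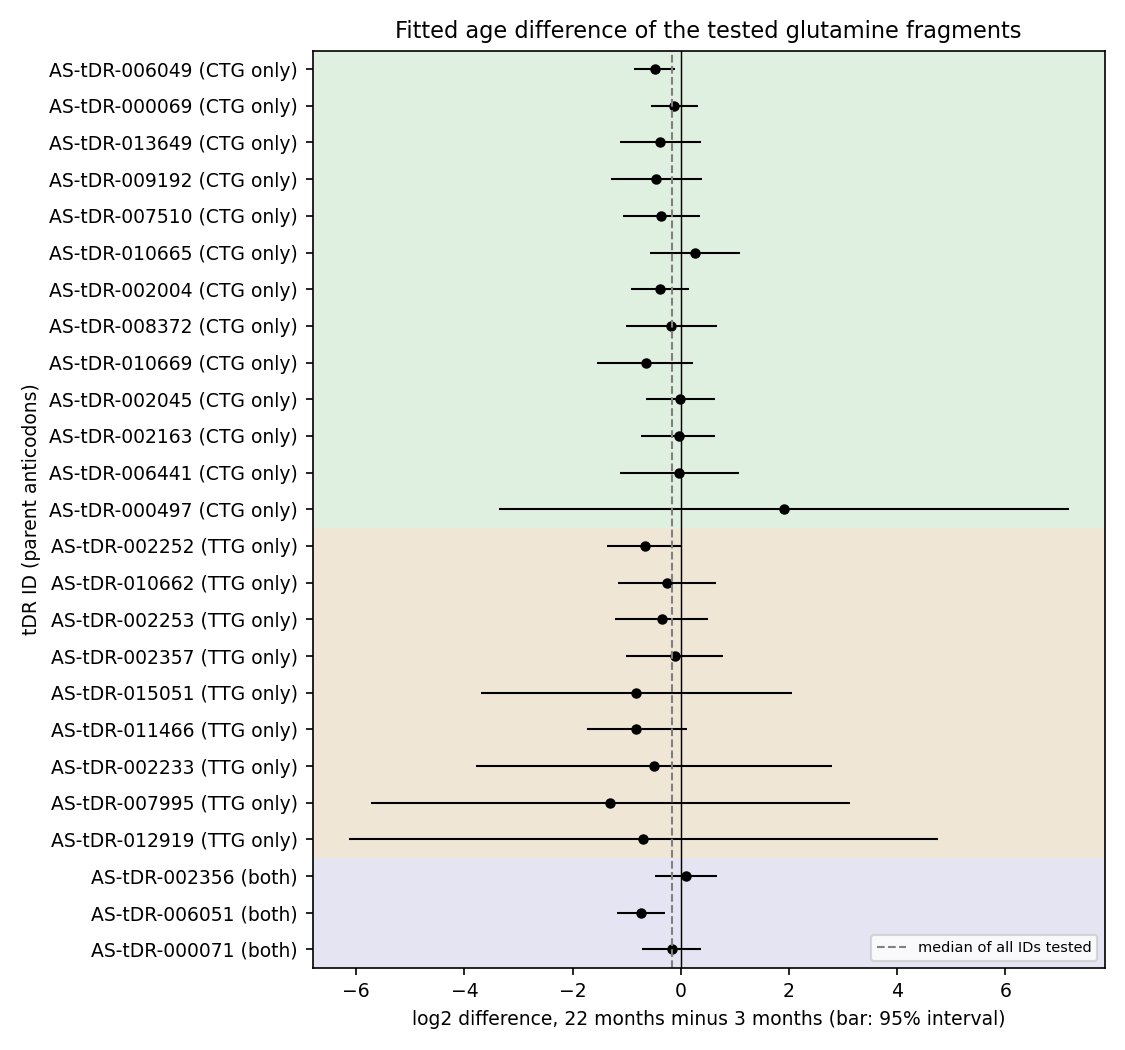
Fitted log2 difference, 22 months minus 3 months, of the 25 tested glutamine IDs; points are edgeR estimates, bars 95% intervals, the dashed line the median of all IDs tested, -0.16. Intervals of AS-tDR-006051 and AS-tDR-006049 lie below 0 before adjustment, and the widest belong to IDs with libraries listed at 0.

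The 2 pairs of IDs whose listed parents point to the 3′ end differed within the pair, a comparison chosen after their values were seen and not tested. Tags of AS-tDR-006051 over those of AS-tDR-000071 gave a ratio of 1.08, 1.14 and 0.65 at 22 months, against 1.39, 1.44 and 1.27 at 3 months. For AS-tDR-006049 over AS-tDR-000069 the ratio was 1.23, 1.29 and 0.958 at 22 months, against 1.42, 1.58 and 1.41 at 3 months. In both pairs every 22 month library lay below every 3 month library, and 22 month replicate 3 was lowest. Such ratios are free of scaling between libraries. In these libraries the members of a pair were unequal in their difference, which does not show that either stayed at one level. Counting error was not set against the ratios, and how often other pairs separate the ages was not examined.

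**Figure D5:**
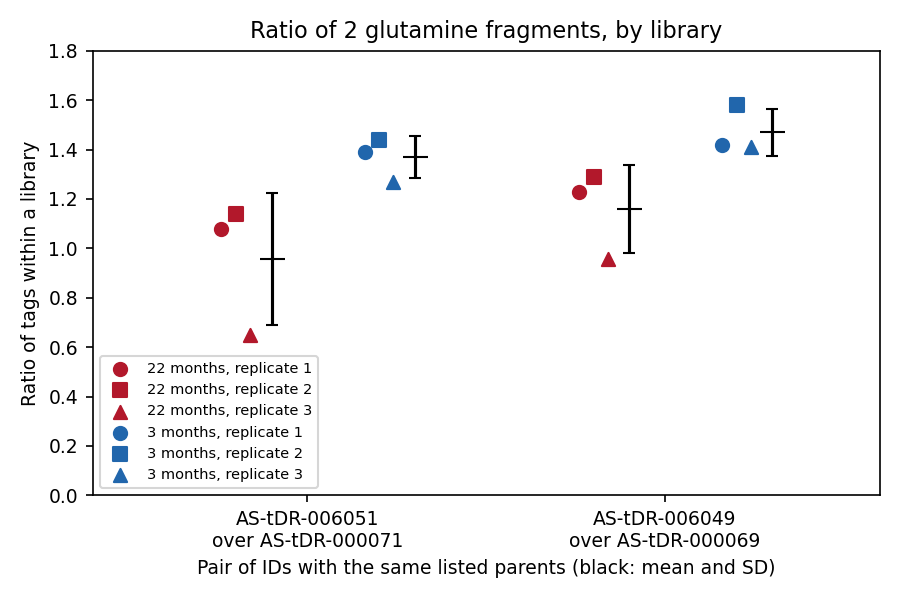
Ratio of tags of 2 glutamine IDs with the same listed parents, within each library; the vertical axis is the ratio, from 0, symbols are libraries and black bars the mean and SD (n = 3). The first pair averages 0.957 ± 0.268 at 22 months and 1.37 ± 0.086 at 3 months, and the second 1.16 ± 0.178 at 22 months and 1.47 ± 0.0947 at 3 months.

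By position, the 13 IDs on the 5′ side took 1.78%, 1.38% and 0.927% of listed tags at 22 months, against 2.01%, 1.65% and 1.78% at 3 months. The 2 IDs placed at the CCA end took 0.278%, 0.193% and 0.228% at 22 months, against 0.354%, 0.357% and 0.417% at 3 months. The 14 IDs not placed are in neither group. Among them are AS-tDR-006049 and AS-tDR-000069, whose windows particular to their parents cover positions 61 to 73. AS-tDR-006049 alone had 226, 285 and 228 tags at 22 months, where the 2 placed IDs together had 198, 186 and 193. Both groups are thus partial counts of their side. The ages overlapped for the 13 IDs and not for the 2 IDs, of which AS-tDR-006051 is 1. In TMM-scaled levels, 20.0% of all IDs tested were lower at 22 months without overlap. The difference of the means was -0.45 percentage points on the 5′ side, and -0.232 without 22 month replicate 3. At the CCA end it was -0.142, and -0.14 without that library. Among the 12 IDs on the 5′ side above 0 in every library, 22 month replicate 3 held the lowest level in 11. Tags of the 13 IDs over those of the 2 IDs were 6.40, 7.15 and 4.07 at 22 months, against 5.69, 4.61 and 4.28 at 3 months. The ages overlapped, and this ratio leaves out the IDs not placed. This grouping was made after the values were known and was not tested.

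The fragments of other tRNAs most like the leading glutamine fragment of each class were ranked by Pearson correlation of log2 CPM over the 6 libraries, among 268 IDs of other amino acids above 0 in every library. For AS-tDR-006049 they were AS-tDR-002583 of Glu-CTC (r = 0.978), AS-tDR-009918 of a Val-CAC precursor (0.967) and AS-tDR-001085 of Tyr-GTA (0.959). For AS-tDR-002252 they were AS-tDR-004226 of Lys-TTT (r = 0.94), AS-tDR-001613 of Arg-CCT (0.934) and AS-tDR-005435 of Val-AAC and Val-CAC (0.927). For AS-tDR-002356 they were AS-tDR-001270 of Glu-TTC (r = 0.984), AS-tDR-001271 of Glu-TTC (0.821) and AS-tDR-004206 of Lys-TTT (0.82). These are the highest of many correlations over few libraries that share depth and scaling, and they are a description. AS-tDR-001270, the closest match of AS-tDR-002356, had 1274, 1588 and 944 CPM at 22 months, against 1180, 1071 and 1229 CPM at 3 months. It was, like AS-tDR-002356, highest in 22 month replicate 2 and lowest in replicate 3 of that age.

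Beside these, the summed level of Glu-CTC fragments had a log2 difference of 0.84 (SE 0.24; in edgeR, adjusted p = 0.0603), that of Glu-TTC 0.12 (SE 0.15; adjusted p = 0.559) and that of His-GTG 0.72 (SE 0.39; adjusted p = 0.256), in the same fit. His-GTG had 17072, 15189 and 39766 CPM at 22 months, against 16710, 12181 and 14820 CPM at 3 months, and without 22 month replicate 3 the log2 difference was 0.15. Without that library it was 0.68 for Glu-CTC and 0.21 for Glu-TTC. Whether these differ from the glutamine sums was not tested.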

How the data were processed

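Small RNA was sequenced from brain of C57BL/6 mice aged 22 months and 3 months (3 libraries each). Total RNA was extracted with Trizol and read as single reads of 50 bases, per the labels' protocols. FastQC, cutadapt, Novoalign and the mm10 genome build are named in the submitters' processing notes, without versions or settings. The authors deposited 1 table of tag counts, whole numbers per tDR ID and library with no normalization found in the values. Columns named Age were read as 22 months and those named WT as 3 months. A fragment stands on several lines, 1 per parent, and its counts were taken once, giving 591 IDs. How reads matching several tRNAs were assigned is not given in the sources used here.

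Counts were fitted with edgeR 4.0.16 (R 4.3.3), using TMM scaling, filterByExpr with a minimum count of 10 and the quasi-likelihood test. The fit ran on all IDs kept (439), and again on tags summed per exact set of parent anticodons (77 sums), with Benjamini-Hochberg adjustment over each and a threshold of 0.05. The procedure was tested on simulated counts without a listing minimum and with larger changes than those fitted for the glutamine fragments. That test does not show how smaller changes, or IDs near the listing minimum, are handled. DESeq2 1.42.0 and limma-voom (limma 3.58.1), other scalings and filters, and each library left out were alternatives. Leaving 22 month replicate 3 out of the shares by anticodon and position and out of the sums of other amino acids was added after seeing the data. Members and lists were chosen with earlier results of these data known. Named members are the 3 most abundant of each parent class, those with the highest and lowest log2 difference of each class, and any at 0 throughout 1 age; others are said to be named after their values were seen. Replicate libraries differed beyond counting noise (chi-square per degree of freedom 6.6 to 59.7).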

Additional observations from a re-analysis of the deposited data

How the results depend on the processing

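No glutamine fragment rose under any of the 15 alternatives. The number that fell was 0 as reported, 1 with RLE scaling, 1 among IDs above 0 in every library, 1 in limma-voom, 2 in DESeq2 and 0 in the other 11. IDs called over the whole table numbered 29 as reported, 44 with RLE scaling, 65 among IDs above 0 in every library, 50 with zeros set just below the smallest listed count, 97 in DESeq2 and 46 in limma-voom. None was called with library size only, scaling to the smallest listed count, no filter, or the replicate block, and leaving out 1 library gave 0 to 14. The cause was not tested.

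Leaving out 1 library moved the CTG sum between -0.19 and 0.004, the TTG sum between -0.64 and -0.23 and the sum of shared fragments between -0.04 and 0.04 (log2). The CTG sum was 0.004 without 3 month replicate 1. The shared sum was 0.03 with no filter, 0.04 without 3 month replicate 1 and 0.003 without 3 month replicate 3. Other scalings moved the sums further. With library size only, the CTG, TTG and shared sums were -0.47, -0.74 and -0.38, against -0.14, -0.44 and -0.04 as reported. Scaling to the smallest listed count gave -0.43, -0.68 and -0.34. With 1 library left out, the difference in glutamine share lay between -1.32 and -0.685 percentage points, and that in the CTG to TTG ratio between 0.508 and 2.1. Signs also turned for single IDs. Leaving out 1 library moved AS-tDR-000069 between -0.18 and 0.07, AS-tDR-000497 between -0.05 and 7.81, AS-tDR-010662 between -0.48 and 0.05, AS-tDR-002357 between -0.29 and 0.16 and AS-tDR-002356 between -0.06 and 0.34. AS-tDR-002357 gave 0.09 without 3 month replicate 3. AS-tDR-002356 gave -0.12 with library size only and -0.07 with scaling to the smallest listed count.

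Same-numbered libraries of the 2 ages had correlations of -0.454, 0.0217 and -0.338 in their deviations from the age means. Libraries of different number had -0.0493 to 0.438. With 3 libraries per age these values cannot decide whether the numbers mark a pairing, and the labels do not say. With the replicate block the log2 difference was -0.14 for the CTG sum, -0.48 for the TTG sum and -0.04 for the shared sum, and 0 glutamine IDs were called. Counts of 8 to 17 tags are the smallest listed, so IDs near them are listed at 0 in some libraries; what difference such IDs could show was not tested.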

Other observations

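A pair of glutamine IDs have precursor parents only and were not counted as members. AS-tDR-002315 had 265, 409 and 342 CPM at 22 months, against 503, 428 and 656 CPM at 3 months. Its log2 difference was -0.64 (SE 0.35, in edgeR adjusted p = 0.295). Every 22 month library lay below every 3 month library, as for 20.0% of all IDs tested, and the closest values were 409 and 428 CPM. AS-tDR-002316 had 491, 493 and 315 CPM at 22 months, against 393, 300 and 635 CPM at 3 months, a log2 difference of -0.03 (SE 0.41; in edgeR, adjusted p = 0.969), and the ages overlapped.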
